A study of Mus musculus with 8 samples.

Results

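Type B intercalated nuclei were taken from mouse kidney as the nuclei that carried at least 2 UMIs (unique molecular identifiers, each standing for 1 captured RNA molecule) of Slc26a4 and at least 1 UMI in total of Slc4a9, Insrr and Hmx2. The members were thus selected on these 4 genes, and 1045 of 81391 nuclei that passed quality control (QC) were members. The study sampled the kidneys of 8 male mice on a C57BL/6J background, 1 library of isolated nuclei per mouse. All 8 mice carried the floxed alleles Bmal1 lox/lox. The 4 cKOt mice also carried the transgenes Pax8-rtTA and LC-1, through which doxycycline turns on Cre recombinase in renal tubule cells, and the 4 Ctrl mice were littermates without these transgenes. Mice of both genotypes drank doxycycline (2 mg/ml, with 20 mg/ml sucrose) for 2 weeks from the age of 8 weeks, so the drug itself was common to all groups. Kidneys were taken at ZT4 in the light phase or ZT16 in the dark phase, which gave 4 groups of 2 mice: Ctrl ZT4, Ctrl ZT16, cKOt ZT4 and cKOt ZT16. Bmal1 is named Arntl in the count matrices. The model reaches every Pax8-expressing tubule segment at once, so a change in type B nuclei cannot be told apart from a response to the loss of Bmal1 in neighbouring segments.

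Intercalated cells are the acid-base cells of the connecting tubule and collecting duct. Type A cells secrete acid with a proton pump (V-ATPase) on the luminal side and return bicarbonate to the blood through the anion exchanger encoded by Slc4a1. Type B cells secrete bicarbonate in exchange for luminal chloride through pendrin, the product of Slc26a4, and carry the bicarbonate transporter AE4 (Slc4a9) and the alkali-sensing receptor IRR (Insrr), and Hmx2 encodes a homeobox transcription factor. The circadian clock is a feedback loop in which BMAL1 and its partner CLOCK or NPAS2 activate the genes Per, Cry, Nr1d and Dbp. PER and CRY proteins repress that activation, while REV-ERB (Nr1d) and ROR nuclear receptors act in opposite directions on Arntl itself.

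The clock genes that moved in type B nuclei are the ones described first below, and the 250 bases before the start of 3 of them are shown because their RNA went in opposite directions. Dbp and Nr1d2, 2 targets of BMAL1, fell from ZT4 to ZT16 in Ctrl and were lower in cKOt at ZT4, whereas Cry1 was higher in cKOt at ZT4. The time calls of Dbp and Nr1d2 and the ZT4 call of Dbp were lost with DESeq2 and in other alternatives, as given below. The sequences are RefSeq's for build GRCm38.p6, the build of the count matrices. They run 5′ to 3′ in the direction of transcription and lie at chr7:45704997-45705246 (Dbp, plus strand), chr14:18239107-18239356 (Nr1d2, minus strand) and chr10:85185055-85185304 (Cry1, minus strand). Capitals mark matches, on either strand, to CACGTG (the E-box bound by CLOCK and BMAL1), TTATGTAA (the D-box bound by DBP) or AGGTCA (the core motif of ROR and REV-ERB receptors).
Dbp: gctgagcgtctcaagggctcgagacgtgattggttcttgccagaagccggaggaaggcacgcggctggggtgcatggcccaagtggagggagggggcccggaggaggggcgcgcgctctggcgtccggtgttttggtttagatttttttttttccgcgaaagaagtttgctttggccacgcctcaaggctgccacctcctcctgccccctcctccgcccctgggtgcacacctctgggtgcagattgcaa
Nr1d2: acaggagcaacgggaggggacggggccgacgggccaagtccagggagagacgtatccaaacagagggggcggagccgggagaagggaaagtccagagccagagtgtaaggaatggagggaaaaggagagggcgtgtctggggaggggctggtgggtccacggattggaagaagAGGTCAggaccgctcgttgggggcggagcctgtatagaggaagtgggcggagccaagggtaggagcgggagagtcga
Cry1: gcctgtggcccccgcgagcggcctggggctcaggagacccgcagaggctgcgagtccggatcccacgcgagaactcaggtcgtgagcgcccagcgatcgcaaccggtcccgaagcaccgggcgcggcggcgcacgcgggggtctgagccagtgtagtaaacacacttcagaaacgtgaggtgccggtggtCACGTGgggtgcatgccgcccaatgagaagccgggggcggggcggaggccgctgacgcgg
CACGTG stood once in the Cry1 window, 60 bases before the start, and in 6.02% of 32851 promoter windows of this length. AGGTCA stood once in the Nr1d2 window, 77 bases before the start, and in 14.02% of windows. TTATGTAA was in none of the 3 windows and in 0.819% of all. Cry1 and the motif AGGTCA were added after the values were seen. The window of Npas2 and the first of 2 windows of Arntl in the table, genes which also moved, held none of the 3 motifs, and the second Arntl window was not searched. These are matches of letters in short windows and not binding sites. A missing match says only that these letters are not in the window.

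The members numbered 113 to 157 per library and made up 1.13% to 1.52% of QC nuclei. Their summed UMIs came to between 705069 and 1003415 per library. The median member held 5360 UMIs and 2368 genes, against medians of 4271 UMIs in type A, 4490 in principal and 3660 in all other QC nuclei. As values that chose the members, and so with no test, Slc26a4 had a median of 34 UMIs per member (quartiles 20 and 58, highest 220), Slc4a9 24, Insrr 6 and Hmx2 2. Members held 92.9% of all Slc26a4 UMIs of QC nuclei, 75.5% of those of Slc4a9, 86.0% of Insrr and 88.4% of Hmx2. Slc4a9 and Insrr were not particular to members. Slc4a9 was detected in 64.0% of type A and 3.95% of principal nuclei, and Insrr in 25.1% and 0.726%. For Hmx2 the values were 0.638% and 0.908%. At the edge of the gate, 20 members had exactly 2 Slc26a4 UMIs, 11 of them with a single UMI of the other genes, while 945 members had at least 10 Slc26a4 UMIs and at least 5 of the others. Just outside it lay 182 nuclei with 1 Slc26a4 UMI and at least 1 of the others, and 156 nuclei with 2 Slc26a4 UMIs and none of the others. Atp6v1g3, a proton pump subunit of intercalated cells, was detected in 93.0% of members, in 35.0% of the 20 at the edge, in 13.7% of the 182 nuclei outside and in 1.72% of the 174 nuclei with at least 2 Slc26a4 UMIs and none of the others.

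Intercalated cell markers that the rule had not used were detected more often in members than in all other QC nuclei. Atp6v0d2 was detected in 96.5% of members against 2.85% of all other QC nuclei, and Foxi1, the transcription factor of intercalated cells, in 42.2% against 0.658%. Both were also found in type A nuclei (90.4% and 29.8%). Tfcp2l1 was detected in 98.9% of members but also in 92.4% of principal nuclei. Slc4a1 of type A cells was detected in 1.05% of members and 1.26% of all other QC nuclei. Its 79.0% in type A nuclei follows from their selection on Slc4a1 and Aqp6. Dmrt2 was detected in 0.383% of members, 41.3% of type A nuclei and 0.676% of all other QC nuclei. Other type A markers were found more often in members than in all other QC nuclei. Aqp6 was detected in 3.92% against 1.53%, and Adgrf5 in 19.3% against 18.0%. Of the members, 17 (1.63%) had the at least 2 UMIs of Slc4a1 and Aqp6 asked of type A nuclei and 6 (0.574%) the marker UMIs asked of principal nuclei, although their Slc26a4 kept them out of both classes. RNA of other cell types was also detected in members. Slc34a1 of the proximal tubule was detected in 71.2% of members and in 75.1% of all other QC nuclei, and Aqp2 of principal cells in 11.2% and 15.0%. Of other principal cell markers, Aqp3 was detected in 14.6% of members and 3.82% of all other QC nuclei and Slc8a1 in 65.1% and 62.0%. Scnn1b was also detected more often in members, and Scnn1g less often. The source of this RNA was not tested. Kit, often given as a type A marker, was detected in 31.2% of members, 85.7% of type A nuclei and 2.90% of all other QC nuclei. Its uneven spread over the members is described further on. No barcode was shared between the member sets of any 2 libraries, while 20 members had a barcode that also passed QC in another library, of 823 QC barcodes found in at least 2 libraries.

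The share of type B nuclei did not pass the test for genotype or time over all 8 mice, while at ZT16 the 2 cKOt mice lay above the 2 Ctrl mice. It was 1.36%, 1.15%, 1.18% and 1.20% of QC nuclei in the 4 Ctrl mice (2 at ZT4, then 2 at ZT16) and 1.32%, 1.13%, 1.52% and 1.43% in the 4 cKOt mice in the same order. The lowest share had a 95% Wilson interval of 0.938% to 1.35% and the highest one of 1.28% to 1.80%, for counting error only. The means were 1.23% ± 0.0946 in Ctrl and 1.35% ± 0.169 in cKOt (SD, n = 4 each), a difference of 0.124 percentage points (two-sided exact permutation p = 0.286, where 4 mice against 4 cannot give less than 0.0286). Between ZT16 and ZT4 the difference was 0.0921 points (exact permutation p = 0.371). As a share of type A and type B nuclei together, type B made up 53.3% ± 7.87 in Ctrl and 62.0% ± 4.92 in cKOt (SD, n = 4 each), 8.73 points more (exact permutation p = 0.143). At ZT16 alone it was 47.9% and 55.1% in Ctrl and 61.3% and 59.5% in cKOt, so both measures were apart by genotype at that time, whereas at ZT4 the genotypes overlapped in both. The ZT16 difference was not tested, because 2 mice against 2 cannot pass the threshold in this test. Both measures use the same counts of members, so they are not independent signs. Over all 8 mice the difference between time points was -3.47 points (exact permutation p = 0.571).

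**Figure D1:**
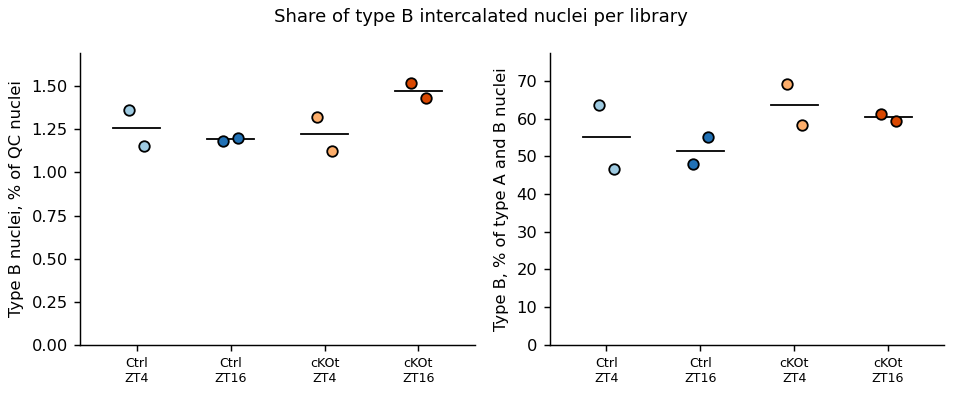
Share of type B intercalated nuclei in each library, as a percent of QC nuclei (left) and of type A and type B nuclei together (right); each point is 1 mouse and the line is the mean of 2 mice of a genotype and time point. The shares of QC nuclei run from 1.13% to 1.52% and at ZT4 the genotypes overlap in both panels, whereas at ZT16 both cKOt mice lie above both Ctrl mice in each.

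The first question was what the loss of Bmal1 did to the clock of these cells. Arntl itself checks the genotype only in part, because reads from the 3′ end of a gene can still count when an internal part is deleted. Where the reads lay was not examined, so the level is not taken as a measure of the deletion. The paper states that inactivation was checked by PCR on another section of the kidneys. In CPM (UMIs of the members summed per library and scaled to a common library total with the TMM factors of edgeR), Arntl stood at 70.3 and 77.6 in Ctrl ZT4, 100.0 and 126 in Ctrl ZT16, 271 and 249 in cKOt ZT4 and 266 and 255 in cKOt ZT16. All 4 cKOt mice were above all 4 Ctrl mice. At ZT4 the log2 difference of cKOt minus Ctrl was 1.81 ± 0.215 (adjusted p = 0.000829, edgeR quasi-likelihood test with Benjamini-Hochberg adjustment over all genes tested). At ZT16 it was 1.21 ± 0.203 (adjusted p = 0.0256, same test). For log2 differences, ± is an approximate SE, taken as the size of the difference over the square root of the test's F statistic.

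At ZT4, 27 of 10305 genes tested (0.262%) were called between genotypes, 13 higher and 14 lower in cKOt. Of the 15 clock genes tested from a list of 16, 4 were higher and 2 lower, with a median log2 difference of 0.251 against 0.0141 over all genes. Npas2, the partner of BMAL1 that can replace CLOCK, read 17.6 and 24.1 CPM in Ctrl ZT4 and 153 and 231 in cKOt ZT4, a log2 difference of 3.19 ± 0.345 (adjusted p = 0.000308). Cry1, a repressor of the loop, went from 8.78 and 12.0 to 136 and 86.2 CPM (3.38 ± 0.409, adjusted p = 0.000859). In the opposite direction, Nr1d2, which encodes the repressor REV-ERB beta, fell from 139 and 140.5 to 13.8 and 18.2 CPM, a log2 difference of -3.11 ± 0.311 (adjusted p = 0.000143). Dbp, an output factor of the clock, fell from 24.9 and 26.8 to 1.26 and 2.43 CPM (-3.70 ± 0.650, adjusted p = 0.0256). Behind these values of Dbp lay 17 and 20 UMIs in Ctrl and 1 and 2 in cKOt, and its call was lost with DESeq2 (adjusted p = 0.447) and without any 1 of the 8 libraries (adjusted p up to 0.447 over all alternatives). Arntl, Npas2, Cry1 and Nr1d2 kept their calls at ZT4 under all 15 alternatives tried. Of these, 8 left out 1 mouse. Where that leaves 1 library in a group, it has no spread of its own and is assumed to vary like the other groups, so here and below a call kept in such fits is a weak sign of stability.

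At ZT16, 17 of 10769 genes (0.158%) were called between genotypes, 8 higher and 9 lower, and 3 of the 13 clock genes tested were among them: Arntl, Npas2 and Nr1d2. Npas2 read 37.0 and 19.2 CPM in Ctrl ZT16 and 171 and 132 in cKOt ZT16 (2.39 ± 0.321, adjusted p = 0.00497). Nr1d2 read 46.0 and 49.4 in Ctrl and 4.95 and 2.46 in cKOt, from 46, 36, 5 and 2 UMIs (-3.58 ± 0.419, adjusted p = 0.00120). Leaving out the second cKOt ZT16 mouse took Nr1d2 past the threshold (adjusted p = 0.0831), and Npas2 lost its call without the second Ctrl ZT16 mouse or either cKOt ZT16 mouse (adjusted p up to 0.141). Arntl was called at ZT16 in only 2 of the 8 fits that left out 1 mouse, those without a cKOt ZT4 mouse. Cry1, which differed at ZT4, had 33.0 and 61.7 CPM in Ctrl ZT16 and 107 and 93.6 in cKOt ZT16 and was not called.

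**Figure D2:**
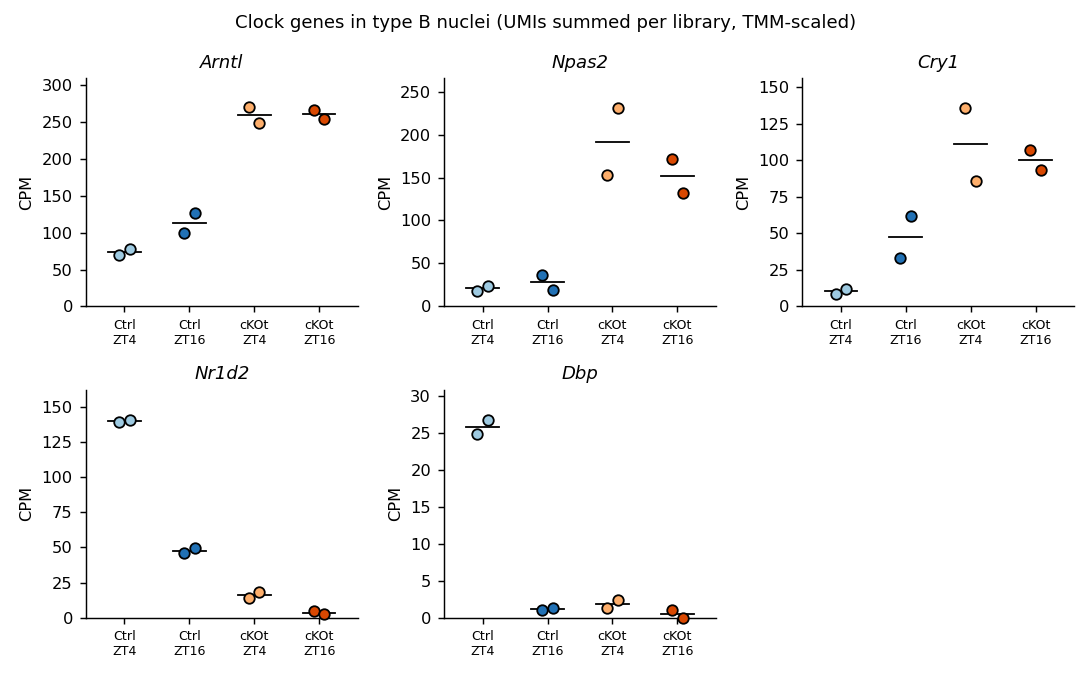
Levels (CPM) of 5 clock genes in type B nuclei; each point is 1 mouse (UMIs summed over the members of a library), the line is the mean of 2 mice, and every axis starts at 0. Arntl and Npas2 sit higher in all 4 cKOt mice than in any Ctrl mouse, and Nr1d2 sits lower.

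The second question was what time of day changed. In Ctrl, 7 of 10389 genes (0.0674%) were called between ZT16 and ZT4, 3 higher and 4 lower at ZT16, and 3 of the 15 clock genes tested were among them. Dbp fell from 24.9 and 26.8 to 1.00 and 1.37 CPM (log2 difference -4.31 ± 0.695, adjusted p = 0.0445), where each Ctrl ZT16 value rests on 1 UMI. Nr1d2 fell from 139 and 140.5 to 46.0 and 49.4 CPM (-1.55 ± 0.268, adjusted p = 0.0489). Rhobtb1, which encodes a BTB-domain protein, rose from 89.3 and 107 to 274 and 279.9 CPM (1.49 ± 0.210, adjusted p = 0.0165). Thsd4 fell from 47 and 36 UMIs to 11 and 10, and Arhgap15, a GTPase-activating protein of Rac, fell from 30.7 and 33.5 CPM to 4.00 and 5.49 CPM, both at an adjusted p of 0.0445. In the second Ctrl ZT4 mouse 15 of the 25 UMIs of Arhgap15 lay in 1 nucleus, and in the first 8 of 21. Slc18a1, a vesicular monoamine transporter, rose from 30.7 and 50.8 to 115 and 192 CPM (adjusted p = 0.0445). In the second Ctrl ZT16 mouse 67.9% of its UMIs lay in 1 nucleus. DESeq2 called none of the 4 genes lower at ZT16 (adjusted p 0.471 for Dbp, 0.131 for Nr1d2, 0.0697 for Thsd4 and 0.147 for Arhgap15). Nr1d2, Thsd4 and Slc18a1 lost their calls with the stricter gate. Without nuclei over the limit on another cell type's list, an alternative added after seeing the data, Rhobtb1, Slc18a1, Nr1d2, Thsd4 and Arhgap15 lost theirs, and of the genes named here Dbp kept its call. None of the 7 calls held in all fits that left out 1 mouse: the count was 0 without either Ctrl ZT4 mouse, 1 without either Ctrl ZT16 or either cKOt ZT16 mouse, and 35 without either cKOt ZT4 mouse. Arntl itself, at 70.3 and 77.6 against 100.0 and 126 CPM, was not called (0.60 ± 0.223, adjusted p = 0.677).

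In cKOt, 0 of 10668 genes (0%) were called between ZT16 and ZT4 by edgeR, with 478 genes at an unadjusted p under 0.05, and DESeq2 called 1. Some genes differed little and others more. Rhobtb1 read 452 and 589.9 CPM at ZT4 and 574 and 522 at ZT16, and Arntl 271 and 249 against 266 and 255, while Nr1d2 read 13.8 and 18.2 against 4.95 and 2.46 and was not called. Without the first cKOt ZT4 mouse the count was 25. Whether the time effect differed between genotypes was tested as an interaction, which called 4 of 11128 genes (0.0359%). Sctr, the receptor of secretin, a hormone that stimulates bicarbonate secretion by type B cells, ran the other way round in the genotypes, and its interaction is the time effect in cKOt minus that in Ctrl on the log2 scale. It stood at 186 and 159 CPM in Ctrl ZT4 and 86.0 and 79.6 in Ctrl ZT16, but at 81.6 and 63.1 in cKOt ZT4 and 203 and 159 in cKOt ZT16 (interaction 2.38 ± 0.329, adjusted p = 0.0109). Arhgap15 was called as well (3.86 ± 0.587, adjusted p = 0.0224, DESeq2 0.119) and was lost without nuclei over the limit on another cell type's list. The interaction count was 68 without the first cKOt ZT4 mouse and 0 without either Ctrl ZT4, either Ctrl ZT16 or either cKOt ZT16 mouse.

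Slc12a3, the thiazide-sensitive cotransporter that marks the distal convoluted tubule, was also called in the interaction and is not a type B gene. It read 51.2 and 36.1 CPM in Ctrl ZT4, 239 and 416 in Ctrl ZT16, 146 and 615 in cKOt ZT4 and 34.7 and 76.4 in cKOt ZT16. The summed level of the 4 distal convoluted tubule markers moved with it, from 131 to 204 CPM in Ctrl ZT4, 421 to 613 in Ctrl ZT16, 277 to 817 in cKOt ZT4 and 122 to 201 in cKOt ZT16 (Slc12a3 itself is 1 of the 4, and Pvalb had 0 to 3 UMIs per library). In the first cKOt ZT4 mouse 68.1% of the Slc12a3 UMIs lay in 1 nucleus. Without the 87 members that had over 0.5% of their UMIs on the marker list of another cell type, the interaction of -5.70 turned to 0.45 and was not called. That limit uses Slc12a3 itself, and it was added after seeing the data.

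Beyond the clock, Rhobtb1 rose at ZT4 from 89.3 and 107 CPM in Ctrl to 452 and 589.9 in cKOt (2.40 ± 0.209, adjusted p = 3.41e-05) and kept its call under all 15 alternatives. Kcnq3, a subunit of the voltage-gated potassium channel that carries the M-current, read 449 and 498 CPM in Ctrl ZT4, 862 and 1065 in Ctrl ZT16, 249 and 280.4 in cKOt ZT4 and 210.0 and 248 in cKOt ZT16. Every cKOt mouse lay below every Ctrl mouse, and at ZT16 Kcnq3 was lower in cKOt by a log2 difference of -2.07 ± 0.191 (adjusted p = 0.00015), a call that was kept under the same 15 alternatives, with that limit. Sgcd, which encodes delta-sarcoglycan, a membrane glycoprotein, read 1167 and 906 in Ctrl ZT4, 854 and 1045 in Ctrl ZT16, 475 and 442 in cKOt ZT4 and 326 and 281 in cKOt ZT16. It was lower in cKOt at ZT4 (-1.18 ± 0.189, adjusted p = 0.0180) and at ZT16 (-1.64 ± 0.192, adjusted p = 0.00120). At ZT16 the Sgcd call was lost only without the second cKOt ZT16 mouse (adjusted p = 0.0831), and at ZT4 without either Ctrl ZT4 mouse or the second cKOt ZT4 mouse (adjusted p up to 0.278). Kctd16, an auxiliary subunit of GABA-B receptors, was lower at both times, with 335 and 403 against 123 and 174 CPM at ZT4 and 345 and 327 against 99.1 and 142 at ZT16 (adjusted p = 0.0233 and 0.0157). The ZT4 call of Kctd16 was lost without either Ctrl mouse of either time or either cKOt ZT16 mouse (adjusted p up to 0.366), and its ZT16 call without any 1 of the Ctrl ZT16 or cKOt ZT16 mice (adjusted p up to 0.264).

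The other genes named at ZT4 were Lingo4, Ndrg1, Slc12a3, Hao2, Ypel2, Col6a6 and the lncRNA D630024D03Rik, higher in cKOt, and Adgb, Hs6st3, Btbd11, Chl1, Klhl29, Cyp2a4, Sctr and Frmpd4, lower. Adgb, which encodes androglobin, read 60.0 and 44.2 CPM in Ctrl and 8.79 and 10.9 in cKOt (-2.38 ± 0.373, adjusted p = 0.0167, lost only without the first Ctrl ZT4 mouse). Hs6st3, a heparan sulfate 6-O-sulfotransferase, read 212 and 269 against 75.3 and 47.3 CPM (adjusted p = 0.0180). Sctr read 186 and 159 against 81.6 and 63.1 CPM (-1.25 ± 0.236, adjusted p = 0.0402). It was the 1 gene called at ZT4 of 18 tested from the receptor list, where 0.262% of all genes were called. At ZT16, 0 of 18 were called, against 0.158% of all genes. The 18 include the rule gene Insrr. Hao2, a hydroxyacid oxidase, was counted at 2 and 5 UMIs in Ctrl and 25 and 94 in cKOt, and 34 of the 94 lay in 1 nucleus. The summed level of the 8 proximal tubule markers was 1444 and 2319 CPM in Ctrl ZT4 and 1543 and 3235 in cKOt ZT4, and its part in the Hao2 value was not tested. The Hao2 call was lost without the second cKOt ZT4 mouse (adjusted p = 0.122) and in 5 other fits that left out 1 mouse (adjusted p up to 0.390). Lingo4 and Col6a6 were at 0 UMIs in both Ctrl ZT4 mice, against 16 and 15 UMIs of Lingo4 and 8 and 27 of Col6a6 in cKOt. Cyp2a4 was at 0 in both cKOt ZT4 mice against 7 and 13 UMIs in Ctrl, spread over 7 and 12 nuclei. Whether these Cyp2a4 UMIs were RNA of the members or of other cell types was not tested. DESeq2 called 20 of the 27 genes, and of those named it did not call Dbp, Lingo4 (adjusted p = 0.0620), Col6a6 (0.0534), Slc12a3 (0.0770), Cyp2a4 (0.0881) and D630024D03Rik (0.0881). Without nuclei over the limit on another cell type's list, Ypel2, Col6a6, Frmpd4 and Slc12a3 lost their calls. The Sctr call at ZT4 was kept in 8 of 15 alternatives (adjusted p up to 0.390). The ZT4 count fell to 7 without the second Ctrl ZT4 mouse and rose to 137 without the first cKOt ZT4 mouse.

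At ZT16 the genes called higher in cKOt besides Arntl and Npas2 were Arhgap15, Igfn1, Cpne8, Vmn1r32, Rnf125 and Ankrd44. Cpne8, a calcium-dependent membrane-binding protein of the copine family, read 121 and 165 CPM in Ctrl and 343 and 323 in cKOt (1.23 ± 0.205, adjusted p = 0.0256), and Ankrd44 read 298 and 292 against 536 and 697 (1.06 ± 0.185, adjusted p = 0.0286). Rnf125, a ubiquitin ligase, was counted at 1 and 2 UMIs in Ctrl and 27 and 18 in cKOt, and Vmn1r32 at 0 and 0 against 19 and 12. DESeq2 called 12 of the 17 genes, and did not call Rnf125 (adjusted p = 0.232), Vmn1r32 (0.116), Igfn1 (0.0677), Arhgap15 (0.0662) and Hs3st5. Arhgap15 also lost its call without nuclei over the limit on another cell type's list. Lower in cKOt, besides Kcnq3, Nr1d2, Sgcd and Kctd16, were Ppp2r2b, Astn2, Nebl, Hs3st5 and the lncRNA Gm47790. Astn2, a membrane protein best known from neurons, read 426 and 561 against 207 and 98.5 CPM (-1.68 ± 0.294, adjusted p = 0.0286), and Ppp2r2b, a regulatory subunit of protein phosphatase 2A, 185 and 248 against 68.4 and 83.8 (-1.51 ± 0.228, adjusted p = 0.0157). Hs3st5, a heparan sulfate 3-O-sulfotransferase, read 272 and 432 against 88.2 and 9.85 CPM (adjusted p = 0.0345). DESeq2 did not call it (adjusted p = 0.925), and in the first cKOt ZT16 mouse 59.6% of its UMIs lay in 1 nucleus. The ZT16 count fell to 1, Kcnq3, without the second cKOt ZT16 mouse and rose to 36 without the first cKOt ZT4 mouse.

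**Figure D3:**
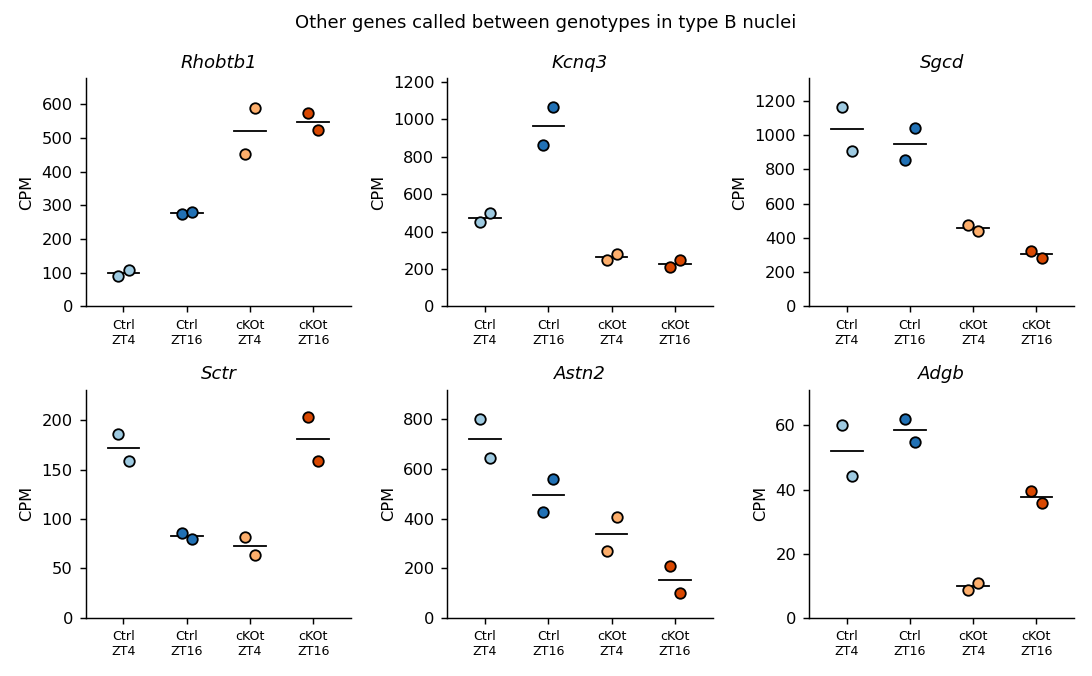
Levels (CPM) of 6 genes called between genotypes outside the clock list in type B nuclei; points are mice, lines are means of 2 mice, and axes start at 0. Kcnq3 and Sgcd lie lower in every cKOt mouse than in any Ctrl mouse, Rhobtb1 runs the other way, and Sctr is high in Ctrl ZT4 and cKOt ZT16.

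No gene of the acid-base lists, rule genes aside, was called between conditions, where at most 0.262% of all genes were called in any comparison, so 0 calls is close to the background. Of the anion exchange and chloride channel list 14 or 15 genes were tested per contrast, of the proton pump list 21, of the carbonic anhydrase and ammonia transport list 7 and of the intercalated transcription factor list 11 or 12, counts that include the rule genes Slc26a4, Slc4a9 and Hmx2. Those 3 chose the nuclei, so no test of them is used here, and edgeR called 0 of the others between genotypes, between time points or in the interaction. For the proton pump genes the log2 difference between genotypes ran from -0.376 to 0.630 at ZT4 (median -0.120 against 0.0141 over all genes) and from -0.484 to 0.3301 at ZT16 (median -0.0309 against -0.00493). For the anion list without its rule genes it ran from -0.22 (Slc12a2) to 0.52 (Slc4a7) at ZT4 and from -0.67 (Slc4a8) to 0.78 (Cftr) at ZT16. With 2 mice a group the values do not show that the genes were unaltered. The immediate early, heat and cold, potassium and sodium and accessory clock lists gave 0 calls between conditions as well.

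Type B and type A nuclei of the same library were then compared, with the genes of either rule left out. Of 11114 genes, 2326 (20.9%) were called, 1174 higher and 1152 lower in type B. DESeq2 called 1554, all of them shared. Of the named genes that were counted well in both types, Lsamp, a cell adhesion protein, had the largest excess in type B, at 7114 to 12151 CPM over the 8 libraries against 21.1 to 154 in type A (log2 difference 6.98 ± 0.188, adjusted p = 1.85e-17). Thsd7a, a thrombospondin-domain protein, read 693 to 1247 against 3.34 to 26.9 CPM (6.54 ± 0.147). Kcnq3, Syt7, a calcium sensor of exocytosis, and Hs3st5 were almost absent from type A, with 3159, 1495 and 1316 UMIs in type B and 2 UMIs each in type A. Tldc2 had 488 UMIs in type B and 0 in type A, and 4930469K13Rik had 3276 and 5, Lcp2 321 and 1, and Aldh1l2 463 and 2. In the other direction Slc26a7, a chloride and bicarbonate exchanger of type A cells, read 0 to 4.20 CPM in type B and 113 to 513 in type A (-7.14 ± 0.237). The calcitonin receptor gene Calcr read 0 to 3.09 against 70.7 to 267 CPM, and Dmrt2, a transcription factor of type A cells, 0 to 2.58 against 120 to 207. Other genes much lower in type B were Pgm5, Slc35f1, Zfp536, Nkain3, Dscaml1, Cadps and Pgr. No library of one type overlapped the range of the other for any gene given with its range here.

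Among lncRNAs the largest excess in type B was held by Gm13986 (151 to 334 CPM against 0 to 4.27), Gm37381 (552 UMIs against 5), Plxna4os3 (201 against 1), 1700027A15Rik (115 against 0) and 4930503O07Rik (64 against 0). Gm9871 and A830008E24Rik were lower, with 6 against 256 and 5 against 197 UMIs.

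Lists chosen with earlier results known are given beside the background of 20.9% of all genes called, 10.6% higher and 10.4% lower in type B. Of 21 proton pump genes 9 were higher and 0 lower in type B (median 0.170 against -0.00105 over all genes), led by Atp6v1c2 (0.90 ± 0.0767), Atp6ap2 (0.81 ± 0.110) and Atp6v1g3 (0.75 ± 0.0830). Of 7 carbonic anhydrase and ammonia genes 4 were higher, with Car15 (2.14 ± 0.209), Car12 (1.90 ± 0.102), Car8 and Car2, and 2 were lower, the ammonia transporters Rhbg (-1.43 ± 0.141) and Rhcg (-0.55 ± 0.103). Of the 14 anion and chloride genes 2 were higher, Clcn3 and Slc4a2, and 7 lower, among them Slc12a2 (-1.26 ± 0.173). Of 17 receptor genes 5 were higher and 6 lower, and of 13 intercalated transcription factor genes 4 were higher and 4 lower. The calcium-sensing receptor Casr was higher by 3.93 ± 0.147 (131 to 441 CPM against 6.68 to 29.1). The Notch ligand Jag1 was higher by 2.50 ± 0.0941 (289.7 to 399 against 50.6 to 76.8). Hmx3, the neighbour and relative of Hmx2, had 40 UMIs in type B and 0 in type A. Kit was lower by -2.41 ± 0.112 and Adgrf5 by -4.71 ± 0.104. Of the 12 immediate early genes 9 were higher in type B (median 1.53), such as Egr1 (1.89 ± 0.219), Fos (2.57 ± 0.378) and Nr4a1 (2.00 ± 0.343). Their levels varied widely between libraries, with Fos at 5.60 to 94.8 CPM in type B and 0 to 15.9 in type A.

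**Figure D4:**
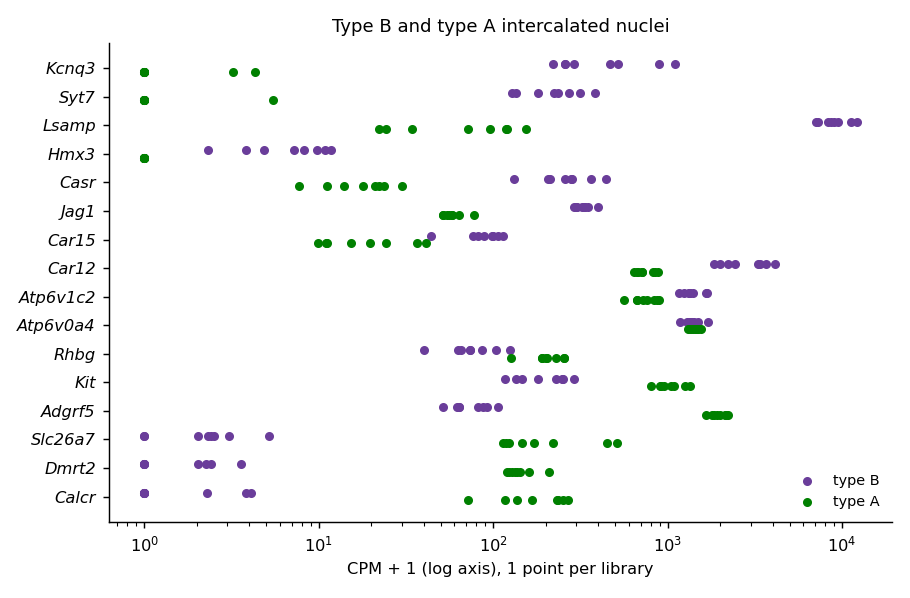
Levels (CPM + 1, log axis) of 16 genes in type B (violet) and type A (green) nuclei; each point is the sum over the nuclei of a type in 1 of 8 libraries. Kcnq3, Syt7, Lsamp, Casr and Jag1 lie apart on the type B side and Adgrf5, Slc26a7, Dmrt2 and Calcr on the type A side, while Atp6v0a4 overlaps.

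Against principal nuclei of the same libraries, 5159 of 12919 genes (39.9%) were called, 2459 higher and 2700 lower in type B. Of 22 proton pump genes 16 were higher and 1 lower, with Atp6v0d2 higher by 7.98 ± 0.157, Atp6v1c2 by 7.76 ± 0.167 and Atp6v1g3 by 6.69 ± 0.127. Rp1 (4830 UMIs against 12), Trpc5, a cation channel (1368 against 4), and the lncRNAs Gm47795 (917 against 1) and Gm12121 (4951 against 22) were among the 6 genes with the largest excess, with Lsamp and Kcnq3. Other lists went both ways, where 19.0% of all genes were higher and 20.9% lower in type B. Of 15 clock genes 4 were higher and 3 lower, and of 19 receptor genes 9 were higher and 7 lower. Of 12 intercalated transcription factor genes 6 were higher and 6 lower. Among the higher ones, Rorb, the ROR family gene, was higher by 7.94 ± 0.205 and Sctr by 7.91 ± 0.273, and Foxi1 by 5.74 ± 0.214. Lower in type B were Kcnh5, Il1rapl1, Spock3, Col26a1 and the lncRNAs Gm39075 and Gm43727, of which Col26a1 had 28 UMIs against 4919.

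Responses to time and genotype were also compared between type B and type A nuclei of the same libraries. The time response in Ctrl differed for 34 of 11114 genes (0.306%), of which DESeq2 called 4. The smallest p was that of Ghr (2.02 ± 0.227, adjusted p = 6.01e-05), a call that was lost without nuclei over the limit on another cell type's list (0.82, adjusted p = 0.650). Arntl came next. In type A nuclei it went from 13.8 and 10.4 CPM at ZT4 to 142 and 141 at ZT16, where the ZT4 values rest on 4 and 7 UMIs, and in type B nuclei from 70.3 and 77.6 to 100.0 and 126, so that the response of type B minus that of type A was -3.05 ± 0.402 on the log2 scale (adjusted p = 0.000509). That call was lost only without the second Ctrl ZT4 mouse (adjusted p = 0.246). At ZT4 the genotype response of Arntl was smaller in type B by -2.78 ± 0.397 (adjusted p = 0.00395 with edgeR and 0.120 with DESeq2), with 286 and 268 CPM in cKOt type A nuclei. That call was lost without either Ctrl ZT4 mouse (adjusted p up to 0.626). The genotype response at ZT4 differed for 3 genes (0.027%) and DESeq2 called 0. At ZT16 it differed for 7 (0.063%), of which DESeq2 called 1, Negr1. Negr1, an adhesion protein of type A nuclei here, stood there at 1006 and 1157 CPM in Ctrl and 269 and 319.6 in cKOt, while type B nuclei held 14 and 11 UMIs against 39 and 27 (difference of responses 3.19 ± 0.393, adjusted p = 0.000315), and the call held under all 12 alternatives.

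The members themselves were not uniform. Inside the gate, Kit, Plxna4 and Kcnip1 were found in one set of nuclei and Malrd1, Tshr and Oxgr1, the receptor of alpha-ketoglutarate, in another. These 6 genes were chosen after their values in the members had been seen, and what follows is a description with no test. A nucleus with more UMIs of the first 3 genes than of the last 3 is called Kit-side and one with fewer Oxgr1-side. By this cut 401 members were Kit-side, 616 were Oxgr1-side and 28 were neither, 20 of them with no UMI of the 6 genes. The cut is one along a score, and whether the sides are separate cell types was not tested. Few nuclei lay near the cut. In 561 members at least 0.9 of the UMIs of the 6 genes came from the Oxgr1 side and in 347 at most 0.1, whereas 41 lay between 0.3 and 0.7. Both sides were found in every mouse, with 29.5% to 45.8% of the classed members on the Kit side. The sides had similar depth, with a median of 5742 UMIs per Kit-side and 5175.5 per Oxgr1-side nucleus. Of the rule genes, on which all members were selected, Slc26a4 had a median of 40 UMIs on the Kit side and 33 on the Oxgr1 side, Slc4a9 31 and 22, Insrr 6 and 6 and Hmx2 3 and 1. Hmx2 was detected in 86.0% of Kit-side and 59.9% of Oxgr1-side nuclei. Slc4a1 was detected in 0.748% of Kit-side and 1.30% of Oxgr1-side nuclei, so the Kit of the Kit side came without the exchanger of type A cells.

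Levels on the sides are CPM scaled to the total UMIs of the side's nuclei, without TMM factors. Of 7653 genes with at least 100 UMIs over both sides, 158 had all 8 Kit-side values above all 8 Oxgr1-side values and 238 the reverse. The pooled level was at least 2 times higher on the Kit side for 200 genes and on the Oxgr1 side for 340. Hs3st5 was almost restricted to the Kit side, with 1304 UMIs against 1, and 4930469K13Rik followed with 3256 against 10. Sgcd stood at 1561 CPM on the Kit side and 9.95 on the Oxgr1 side, Kcnq3 at 1114.5 and 20.2, and Rorb at 784 and 16.4. Cntnap5b, Sv2c, Lcp2, Bglap3, C130071C03Rik, Tldc2 and Col25a1 were the other Kit-side genes with the largest ratios. On the Oxgr1 side the largest ratios were those of the lncRNA B830017H08Rik (301 UMIs against 3) and Car15, a membrane-bound carbonic anhydrase (544 against 6), and Kcng3, Fa2h, Rhbg (484 against 17) and Clnk (1627 against 59) followed. Of single transport and receptor genes, picked after their values were seen and not counted over their lists, Car12 was 3.05 times and Casr 5.05 times higher on the Kit side, while Car2 was 3.45 times, Sctr 3.07 times, Ptger3, a prostaglandin E2 receptor, 2.04 times and the proton pump subunit Atp6v0a4 1.82 times higher on the Oxgr1 side. For Car2, Car12, Casr and Atp6v0a4 the 8 values of one side did not overlap the 8 of the other, whereas for Sctr and Ptger3 they did.

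Arntl and Nr1d2 are given by side, as genes chosen after their values were seen. At ZT4, Arntl stood at 133 and 145 CPM on the Kit side and 15.6 and 34.4 (6 and 15 UMIs) on the Oxgr1 side, whereas at ZT16 the sides overlapped, with 94.3 and 122 against 92.3 and 127. The mean ratio of ZT16 to ZT4 in Ctrl was thus 0.782 on the Kit side and 4.38 on the Oxgr1 side. Type A nuclei, scaled as a type, read 13.8 and 10.4 at ZT4 and 142 and 141 at ZT16. Nr1d2 stood at 75.7 and 108 at ZT4 and 68.2 and 65.6 at ZT16 on the Kit side, and at 182 and 156 and then 24.2 and 34.8 on the Oxgr1 side, so the time ratios were 0.730 and 0.174. In cKOt, Arntl stood at 272 to 321 CPM on the Kit side and 217 to 267 on the Oxgr1 side, and Nr1d2 at 0 to 9.16 and 0 to 23.6, at both time points. Npas2 in cKOt read 259.7, 283, 318 and 270.1 CPM on the Kit side and 78.5, 165, 65.9 and 64.9 on the Oxgr1 side, with no overlap.

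Side values follow for 5 of the genes called lower in cKOt, likewise chosen after their values were seen. Kcnq3 on the Kit side read 934, 1183, 1683 and 2285 CPM in Ctrl and 596, 659.7, 508 and 847 in cKOt, and on the Oxgr1 side at most 48.4. Sgcd on the Kit side read 2484, 2168, 1707 and 2261 in Ctrl and 1134, 1014, 775 and 998 in cKOt, and Hs3st5 805, 759.8, 546 and 939.6 against 159, 254, 214 and 27.5. For all 3 genes the genotypes did not overlap within the Kit side, as a description of genes and a split chosen after their values were seen. The share of all genes that did the same is not given here. Nearly all UMIs of the 3 genes lay on the Kit side (Kcnq3 3075 against 75, Sgcd 4307 against 37, Hs3st5 1304 against 1). These side values thus rest on the counts behind the calls over all members and are no separate sign. The share of Kit-side nuclei was lowest, 29.5%, in the second cKOt ZT16 mouse and 37.8% to 45.8% in the other 7, and its part in the differences over all members was not tested. Adgb and Hs6st3 lay mostly on the Oxgr1 side, where at ZT4 Adgb read 96.4 and 61.8 CPM in Ctrl and 12.7 and 18.9 in cKOt, and Hs6st3 378 and 453 against 102 and 70.8. Of the genes higher in cKOt, Cpne8 differed on the Oxgr1 side, 132 and 164 CPM in Ctrl ZT16 against 509.6 and 409 in cKOt ZT16, and overlapped on the Kit side, 120.4 and 161 against 125 and 109.9. Rhobtb1 at ZT4 was higher in cKOt on both sides, 3.85 times on the Kit side and 6.44 times on the Oxgr1 side. The 6 genes of the split were not called in any comparison of conditions over all members, and the smallest adjusted p among them was that of Plxna4 at ZT4 (-0.97 ± 0.204, adjusted p = 0.0791). Without a call, Plxna4 was also lower in cKOt at ZT16 (-0.86 ± 0.202), and Kcnip1 at ZT4 (-0.78 ± 0.266) and ZT16 (-0.47 ± 0.261). On the Oxgr1 side, Malrd1 went from -0.39 at ZT4 to 0.29 at ZT16, Oxgr1 from -0.29 to 0.39 and Tshr from -0.37 to -0.088. Whether such shifts moved nuclei across the cut was not tested.

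**Figure D5:**
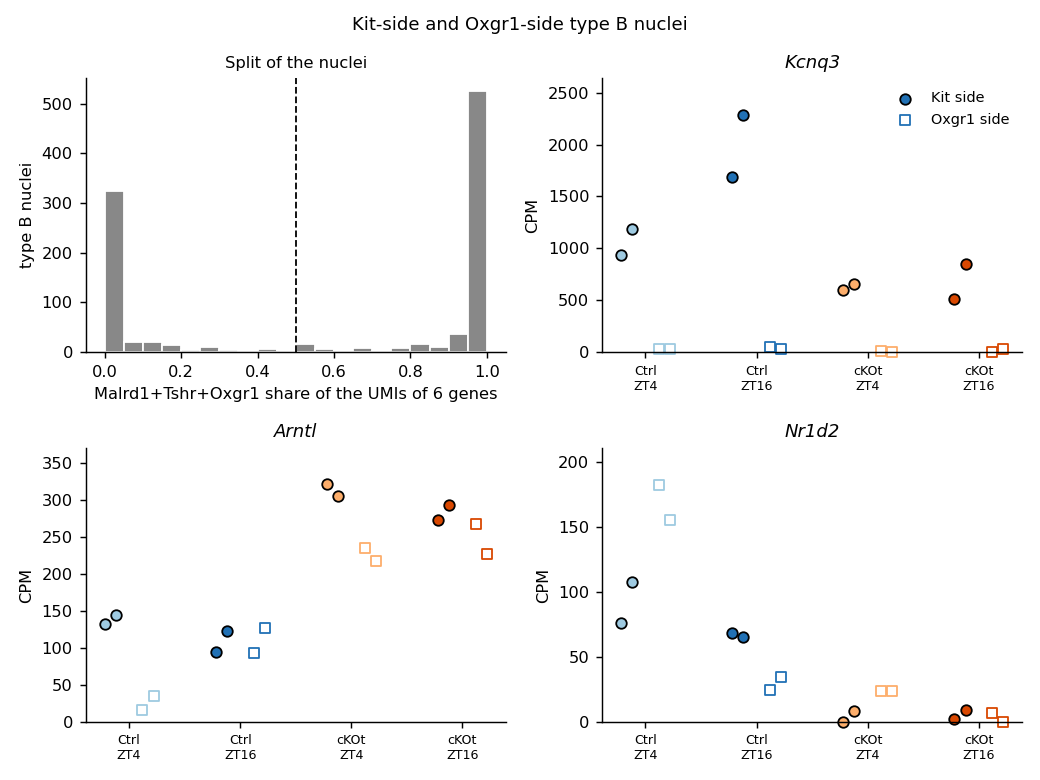
Top left, number of type B nuclei by the share of the UMIs of 6 genes that came from Malrd1, Tshr and Oxgr1 (cut at 0.5, dashed line); other panels, CPM of Kcnq3, Arntl and Nr1d2 on the Kit side (filled circles) and the Oxgr1 side (open squares), 1 point per mouse and side, axes from 0. Most nuclei lie at the ends of the score, Kcnq3 is confined to the Kit side in the libraries shown (at most 48.4 CPM on the Oxgr1 side), and in Ctrl ZT4 Arntl is high and Nr1d2 low on the Kit side relative to the Oxgr1 side.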

How the data were processed

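Nuclei of 8 frozen kidneys were sorted on DAPI and profiled with Chromium 3′ v3.1 chemistry. Per the labels and the study's methods, the authors used bcl2fastq 2.20 and Cell Ranger 7.1.0, and deposited filtered matrices of UMI counts per gene and nucleus. The 32285 features are those of the 10x Genomics mm10 reference, although the labels name GRCm39. The counts were not normalised.

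For QC, nuclei needed 500 genes or more, 800 UMIs or more and a mitochondrial share of UMIs no higher than 2%. Doublets were not removed. Type A nuclei had at least 2 UMIs of Slc4a1 and Aqp6 in total and principal nuclei at least 2 of Aqp2 and 1 of the sodium channel subunits, both with at most 1 of Slc26a4. Counts were summed per library and type. The sums were fitted with edgeR 4.0.16 (quasi-likelihood, TMM factors, R 4.3.3). For type B nuclei 1 model of the 4 groups was used, on genes with at least 5 counts in both libraries of at least 1 group. Comparisons between types had library as a block, on genes with at least 5 counts in at least 4 sums of 1 type. Calls used an adjusted p of 0.05 (Benjamini-Hochberg). DESeq2 1.42.0 was an alternative. Shares were compared with exact permutation tests (SciPy 1.17.1). The fits were also run on simulated counts with the same spread for every gene. That run does not test uneven spread, or genes with most UMIs in 1 nucleus. Libraries are separate mice, and intervals cover counting error only.

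The members and gene lists were chosen with earlier results of these data known. Named genes were up to 12 per direction by p (between conditions) or by fold with at least 100 counts (between types), called list genes, the 6 strongest response differences and up to 5 lncRNAs, except that the genes of the Kit and Oxgr1 split and those named on its sides were chosen after their values were seen. Results of some genes that count in the totals are not reported here.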

Additional observations from a re-analysis of the deposited data

Results flagged for a closer look

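The first results differed between the genotypes in a test of the genotype by time interaction in type B nuclei (edgeR). The log2 interaction was -5.70 for Slc12a3, 2.38 for Sctr and 3.86 for Arhgap15. For Slc12a3 the distal tubule markers moved with it, and their part in the result was tested only by leaving out nuclei, as given in the report. Sctr lost its call without either Ctrl mouse of either time or either cKOt ZT16 mouse, with adjusted p up to 0.161.

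The time response in Ctrl differed between type B and type A nuclei, on the log2 scale, by 2.02 for Ghr, -3.05 for Arntl, 3.40 for Fgf1, 1.65 for Pde4d, 2.85 for Gm42397 and 1.36 for Trps1. Taken gene by gene, the type B nucleus with the most UMIs in the second Ctrl ZT16 mouse held 41.5% of those of Ghr. For Fgf1 this share was 61.6%, for Gm42397 70.2%, for Trps1 36.0% and for Pde4d 31.5%. Without nuclei over the limit on another cell type's list these 5 genes lost their calls and Arntl kept its call. DESeq2 did not call Pde4d (adjusted p = 0.125) or Trps1 (0.4998). Without the second Ctrl ZT4 mouse all but Ghr were lost, and without the second Ctrl ZT16 mouse Fgf1, Gm42397, Trps1 and Pde4d.

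The genotype response at ZT4 differed by -2.78 for Arntl, 2.19 for Zeb2 and -2.55 for Rorb. Rorb stood at 502 and 474 CPM in Ctrl ZT4 and 151 and 134 in cKOt ZT4 in type B nuclei, and at 131 and 155 against 289 and 211 in type A nuclei.

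The genotype response at ZT16 differed by 3.19 for Negr1, -4.44 for Slc14a2, 2.97 for Adamtsl1, 1.63 for Chst8, 3.96 for Grm7 and 4.00 for Arhgap15. For Slc14a2, 87.9% of its UMIs in the second Ctrl ZT16 mouse lay in 1 type B nucleus, and for Grm7 11 of 19 and 7 of 17 in the cKOt ZT16 mice. Adamtsl1 and Chst8 lost their calls without any 1 of the Ctrl ZT16 or cKOt ZT16 mice, Grm7 without the first of either pair and Slc14a2 without the second Ctrl ZT16 mouse. Zeb2 and Rorb lost theirs at ZT4 without any 1 of the Ctrl mice or the second cKOt ZT4 mouse. Of the genes given for ZT4 DESeq2 called none, and of those for ZT16 only Negr1. Arhgap15 also lost its call without nuclei over the limit on another cell type's list. The same gene lost it without either Ctrl mouse of either time or the first cKOt ZT16 mouse.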

How the results depend on the processing

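Without the filter on low counts the calls rose to 86 (time in Ctrl), 25 (time in cKOt), 128 (genotype at ZT4), 74 (genotype at ZT16), 59 (interaction), and 129, 30 and 39 for the differences of response in time, at ZT4 and at ZT16. DESeq2 gave 1 call for time in cKOt and 4, 0 and 1 for the 3 response differences. Fitting mRNA and lncRNA separately gave 2 for time in cKOt, and the stricter gate 4 for time in Ctrl. Leaving out nuclei over the limit on another cell type's list, chosen after seeing the data, gave 3 (time in Ctrl), 4 (time in cKOt), 35 (genotype at ZT16) and 11, 6 and 12 for the response differences, and turned the Slc12a3 interaction to 0.45. The causes were not tested.

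With 1 mouse left out, counts ran from 0 to 35 (time in Ctrl), 0 to 25 (time in cKOt), 7 to 137 (genotype at ZT4), 1 to 36 (genotype at ZT16), 0 to 68 (interaction), 1941 to 2207 (type B against type A) and 4722 to 5052 (against principal). The response differences ran from 2 to 92 in time (2 without the second Ctrl ZT4 mouse, 92 without either cKOt ZT4 mouse), 0 to 63 at ZT4 (0 without either Ctrl ZT4 mouse, 63 without the first cKOt ZT4 mouse) and 2 to 12 at ZT16 (2 without the second Ctrl ZT16 mouse, 12 without either cKOt ZT4 mouse). The differences of share kept their side of the threshold under every alternative run. With 1 mouse left out the exact permutation test cannot come under 0.05, so those fits are no sign of stability. In them the differences for genotype and time ran from 0.0674 to 0.198 and 0.0303 to 0.142 points of QC nuclei. Of type A and B nuclei they ran from 6.35 to 12.2 and -7.76 to -0.213 points.

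The log2 difference of Arntl: ZT16 against ZT4 in cKOt (0.00469) changed sign with DESeq2 (-0.00601), RLE size factors (-0.00712) and the stricter gate (-0.0273), and ran from -0.0461 to 0.0898 with 1 mouse left out, always with no call.

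With the replicate block the counts were 14 (time in Ctrl), 3 (time in cKOt), 32 (genotype at ZT4), 23 (genotype at ZT16) and 4 (interaction). The deviations of same-numbered mice correlated by -0.043 to 0.242 over 8484 genes, with 0.242 between the ZT4 groups and 0.117 between the ZT16 groups. Not every pair exceeded 0.1 and the labels do not say what the numbers mark, so the numbers were not taken as pairs, and a shared factor was not tested. The planned removal of doublet-like nuclei gave no value, because it left 11 of 1045 members. With 2 mice a group and 113 to 157 members a library, low genes rest on few UMIs.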
